A study of Mus musculus with 77 samples.

Results

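The genes described here are 10 marker genes of the choroid plexus, Ttr, Kl, Folr1, Clic6, Kcnj13, Aqp1, Otx2, Slc4a5, Sostdc1 and Prlr, measured in AGO2-bound mRNA of the BNST, the bed nucleus of the limbic fibre bundle called stria terminalis, a forebrain region that regulates anxiety. They were taken by symbol, and all 10 were among the 16587 genes of the AGO2 mRNA data. They were picked with their values in these pools already known, so their levels and group differences are given as a description and without p-values.

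The mice were male C57BL/6Crl (C57BL/6NCrl in the study's methods), aged 8 weeks at dissection, and had gone through chronic social defeat stress (CSDS), in which a mouse is repeatedly attacked by an aggressor, or through the control condition without physical contact. Defeated mice were labelled resilient or susceptible by their social interaction with an unfamiliar mouse. BNST was punched below the lateral ventricles 6 to 8 days after CSDS, 3 BNST were pooled per sample, and RNA was collected by AGO2 pull-down, since AGO2 is the catalytic protein of the complex that carries miRNAs to their target mRNAs. There were 5 control, 5 resilient and 4 susceptible pools for mRNA and 5, 5 and 3 pools for miRNA, from separate libraries of pools with the same numbers, and susceptible pool 3 was analysed for mRNA alone. The labels do not say which mice made up a pool. The reads counted on genes ranged from 3701281 to 10659882 per mRNA pool, and those counted on miRNAs from 3173294 to 9404828 per miRNA pool. Levels are log2 CPM, the log2 of a read count scaled by the size of its library, in which 0.5 reads were added to each count.

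The choroid plexus is the fringe of epithelium that hangs in the brain ventricles and secretes the cerebrospinal fluid. Its cells move ions, bicarbonate and water across the apical membrane, carry vitamins and hormones from blood to the fluid, and are known for very high transthyretin. Neurons and glia of the BNST parenchyma are not known for most of these genes, while the prolactin receptor is also known from neurons of the hypothalamus and neighbouring limbic areas.

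Among miRNAs, miR-204 is known for its abundance in choroid plexus epithelium, and the miR-34 and miR-449 families are known from cells with motile cilia. Mature sequences are from RefSeq on GRCm38.p6, written 5′ to 3′ with the seed (bases 2 to 8) in capitals, because the seed decides which of them belong to one family. They are shown because their levels were set against Ttr below. The first pair shares the seed UCCCUUU, and miR-204-5p lies in an intron of Trpm3 on the plus strand at chr19:22750610-22750631 while miR-211-5p lies in an intron of Trpm1 at chr7:64205831-64205852.
miR-204-5p: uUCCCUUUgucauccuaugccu
miR-211-5p: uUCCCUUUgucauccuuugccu
The next set shares the seed GGCAGUG. miR-34b-5p lies on the minus strand at chr9:51103610-51103632, opposite an intron of Btg4, and the miR-449 members lie in an intron of Cdc20b, miR-449a-5p at chr13:113037549-113037570 and miR-449c-5p at chr13:113036008-113036028.
miR-34b-5p: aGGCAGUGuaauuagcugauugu
miR-449a-5p: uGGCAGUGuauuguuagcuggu
miR-449c-5p: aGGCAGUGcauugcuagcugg
The other arm of the miR-34b hairpin, with another seed, lies at chr9:51103574-51103595.
miR-34b-3p: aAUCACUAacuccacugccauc

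Ttr encodes transthyretin, which carries thyroid hormone and retinol-binding protein in the cerebrospinal fluid. Its level was 6.81, 4.40, 6.46, 6.82 and 0.61 log2 CPM in control pools 1 to 5, 6.08, 3.50, 6.37, 1.79 and 2.00 in resilient pools 1 to 5, and -0.19, 0.24, -0.31 and 5.04 in susceptible pools 1 to 4. Control pool 5 was far below the other controls, susceptible pool 4 was far above the other susceptible pools, and resilient pools fell on both sides, so the groups overlapped. In reads, Ttr went from 4 in susceptible pool 1 to 889 in resilient pool 3. Per length of exons Ttr had the highest median of the 10 genes in the control and resilient pools, with a control median of 74.1 CPM per kilobase against 6.58 for Clic6 and 5.12 for Prlr. In the susceptible pools its median was 0.801 CPM per kilobase, below the 4.54 of Clic6 and the 3.66 of Prlr.

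Kl encodes klotho, a membrane protein that serves as a coreceptor for a fibroblast growth factor and that the choroid plexus also sheds into the fluid. Its level was 4.37, 2.93, 3.85, 4.68 and 2.25 log2 CPM in the controls, 3.79, 2.51, 4.01, 2.29 and 2.29 in the resilient pools and 2.07, 1.49, 2.02 and 3.04 in the susceptible pools. The order of pools was close to that of Ttr, with control pool 5 lowest of its group and susceptible pool 4 highest of its group, over a narrower range.

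Folr1, the folate receptor that brings folate into the cerebrospinal fluid, was close to the limit of detection. It had 9, 1, 11, 18 and 3 reads in the controls, 12, 1, 12, 1 and 0 in the resilient pools and 1, 1, 0 and 1 in the susceptible pools. Every susceptible pool was below every control pool, but the nearest values, -1.78 and -1.75 log2 CPM, each came from 1 read and differed through library size alone. Summed over pools, Folr1 had 3 susceptible and 42 control reads, a ratio of read rates of 0.0707 (95% exact interval 0.014 to 0.221, for counting error only and as a description). This was the lowest of the 10 genes, whose other ratios ran from 0.117 for Ttr to 1.12 for Prlr.

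Sostdc1 encodes a secreted antagonist of BMP and WNT signalling. It ranged from -0.46 to 1.57 log2 CPM in the controls, from -3.04 to 0.79 in the resilient pools and from -2.42 to -1.68 in the susceptible pools, which again did not overlap with the controls. In all, 3 control pools, 2 resilient pools and 0 susceptible pools reached 1 CPM.

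Among the transport genes, Aqp1, the apical water channel, ran from -3.63 to 1.84 log2 CPM in controls, -3.64 to 0.93 in resilient pools and -4.00 to -0.04 in susceptible pools. Slc4a5, a sodium bicarbonate cotransporter, ran from -3.63 to 2.87, from -2.75 to 2.78 and from -2.42 to 1.36 in the same order of groups. Kcnj13, an inward rectifier potassium channel of the apical membrane, ran from -3.33 to 2.08, from -2.75 to 1.46 and from -4.00 to 0.20. All 3 were low, with 4, 2 and 4 pools at 0 reads respectively, and control pool 5 was the lowest control for Aqp1 and Slc4a5, while control pool 2, with 0 reads, was the lowest for Kcnj13. The highest susceptible pool was pool 4 for all 3. A level from 0 reads lies under the floor of 3 reads, which was between 0.279 and 0.889 CPM depending on the pool.

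Otx2 encodes a homeodomain transcription factor that choroid plexus epithelium needs to form and to keep its identity. Its level was 3.52, 2.55, 3.09, 2.98 and 0.61 log2 CPM in the controls, 2.41, 2.45, 2.54, 1.86 and 0.95 in the resilient pools and 1.28, 1.35, 1.42 and 1.99 in the susceptible pools. Control pool 5 was below every other pool, and susceptible pool 4 was again the highest of its group.

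Clic6, a chloride intracellular channel protein, and Prlr, the prolactin receptor, did not follow this order. Clic6 was 5.33, 4.21, 4.40, 5.40 and 4.69 log2 CPM in the controls, 3.97, 2.45, 5.05, 4.24 and 3.93 in the resilient pools and 4.44, 4.15, 2.86 and 4.17 in the susceptible pools. Control pool 5, the lowest control for Ttr, lay in the middle of the controls for Clic6. Prlr was 6.30, 6.47, 6.30, 4.91 and 5.56 in the controls, 6.17, 5.91, 5.71, 6.33 and 5.43 in the resilient pools and 5.88, 5.68, 6.83 and 5.74 in the susceptible pools. Its lowest value was in control pool 4 and its highest in susceptible pool 3, which were the pools with the highest and the lowest Ttr.

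**Figure D1:**
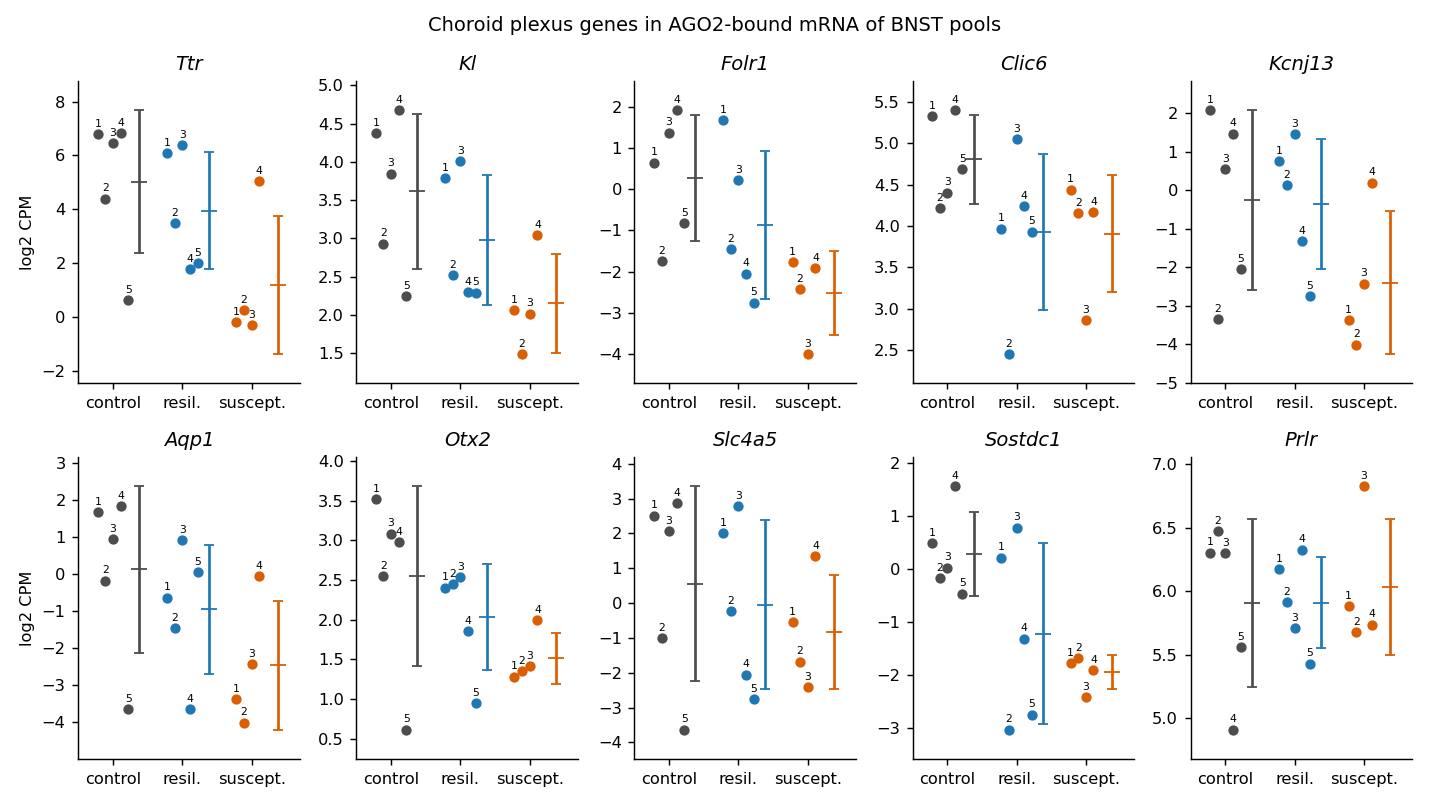
Level of each of the 10 genes (y axis, log2 CPM, its own scale in each panel) in the 5 control, 5 resilient and 4 susceptible pools (points, numbered by pool), with the group mean and SD at the right of each group. Control pool 5 lies low and susceptible pool 4 lies high in their groups for Ttr, Kl and Otx2, while Prlr is spread from 4.91 to 6.83 in another order.

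Not every gene passed the authors' low-level filter in the same way. Ttr, Kl, Clic6, Otx2 and Prlr were at 1 CPM or more in at least 12 pools. Folr1, Aqp1 and Sostdc1 reached it in 5 pools each, none of them susceptible, Slc4a5 in 6 and Kcnj13 in 7. These last 5 genes stayed in the data mainly through the control and resilient pools in which they were high.

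On GRCm38 the genes lie on 9 chromosomes. Kl is at chr5:150952607-150993817, Folr1 at chr7:101858331-101870788, Clic6 at chr16:92485736-92541243, Kcnj13 at chr1:87386363-87394729 and Otx2 at chr14:48657677-48673819. Aqp1 at chr6:55336432-55348555 and Slc4a5 at chr6:83219828-83304945 share a chromosome, Sostdc1 is at chr12:36314139-36318452, Prlr at chr15:10177238-10349180 and Ttr on chromosome 18. Several genes share their position with others, and the strand setting of the read counting is not given in the sources used here. Folr1 overlaps Anapc15, Kcnj13 overlaps Gigyf2, Otx2 overlaps Otx2os1 and Gm49154, Prlr overlaps Gm21973 and Clic6 overlaps 2410124H12Rik, and of these only the overlap of Otx2 with Gm49154 and the overlaps of Clic6 and Prlr are on the same strand. No other gene overlaps Ttr, Kl, Aqp1, Slc4a5 or Sostdc1 in the GENCODE annotation of GRCm38. Reads of an overlapping partner could therefore be counted on Folr1, Kcnj13, Otx2, Prlr and Clic6.

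Pool by pool, 8 of the 10 genes varied together, a group of 8 formed after the values were seen. Over the 14 pools, Ttr and Kl had a Pearson r of 0.94, Ttr and Aqp1 0.89, Ttr and Slc4a5 0.89, Ttr and Otx2 0.87, Ttr and Kcnj13 0.86, Ttr and Folr1 0.81 and Ttr and Sostdc1 0.698. The 28 pairs of these 8 genes had a median r of 0.812 (0.553 to 0.943), and 75.0% of them were at 0.7 or above. Over all pairs of genes in the data, 1.77% were at 0.7 or above and the median was -0.00125. The points are 14 libraries, and genes of one library share its depth and its tissue.

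The remaining 2 genes differed from each other. Clic6 had a median r of 0.45 with the other 9, and only its r of 0.80 with Sostdc1 was above 0.7. Prlr had a median r of -0.165, from -0.411 with Clic6 to 0.158 with Otx2. With all 45 pairs of the 10 genes the median was 0.698, and 48.9% were at 0.7 or above.

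The shared order was also seen with group differences taken out. After group means were removed, the 28 pairs had a median r of 0.76 (0.351 to 0.951) and all 45 pairs a median of 0.665. At 0.7 or above were 67.9% of the 28 pairs, 44.4% of the 45 pairs and 1.86% of all gene pairs. When control pool 5 and susceptible pool 4, which stood apart from their groups, were left out, the median was 0.847 (0.643 to 0.952) over 12 pools. Sequencing depth ran in another order, since the log2 of the total reads had an r of -0.14 with Ttr and the number of genes at 0 reads had an r of -0.0249.

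**Figure D2:**
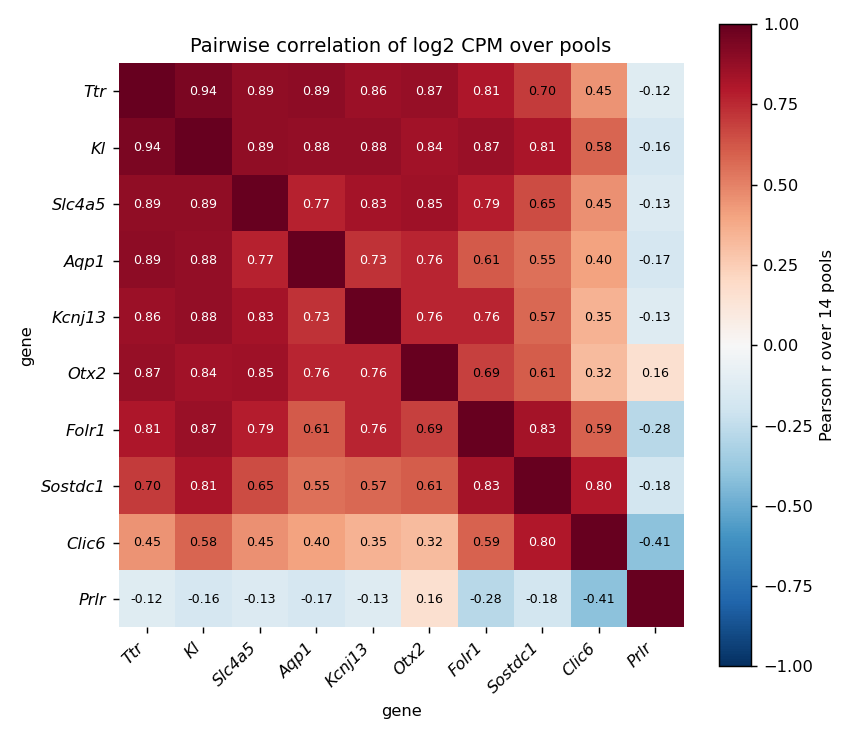
Pearson correlation of log2 CPM over the 14 pools for every pair of the 10 genes (both axes list the genes, colour and number give r). Ttr and Kl reach 0.94 and the first 8 genes are all above 0.55 with each other, Clic6 is highest with Sostdc1, and Prlr lies between -0.41 and 0.16 with the others.

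Counting the 10 genes that were above their own median over all pools gives each pool a profile. Control pools 1 to 5 had 10, 6, 10, 9 and 3 genes above it, resilient pools 1 to 5 had 8, 5, 9, 2 and 1, and susceptible pools 1 to 4 had 1, 0, 1 and 5. High and low pools thus occurred among the controls and among the resilient pools. Of the susceptible pools, 3 had at most 1 gene above its median and 1 had 5.

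The first comparison asked how resilient mice differed from controls. A gene was called where limma's unadjusted p was under 0.05 and its level differed at least 1.2-fold. Here 9 of the 10 genes had a log2 fold change below 0, against 52.8% of all genes, and 2 were called lower, Sostdc1 at -1.51 (SE 0.71) and Clic6 at -0.88 (SE 0.39). Over all genes, 9.04% were called lower and 8.65% higher. Clic6 followed the markers of striatal neurons over pools (r = 0.906) more closely than it followed Ttr, as described further on. Ttr stood at -1.07 (SE 1.25) and Kl at -0.64 (SE 0.45), with 5 pools per group. The median log2 fold change was -0.76 for the 10 genes and -0.02 for all genes, and 0 of the 10 had an adjusted p under 0.05, against 1.95% of all genes.

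In susceptible against control pools 9 of the 10 genes were below 0, against 51.2% of all genes, and 7 were called lower, against 9.28% of all genes called lower and 9.65% called higher. Ttr had a log2 fold change of -3.82 (SE 1.32), Folr1 -2.80 (SE 0.93), Aqp1 -2.59 (SE 1.13), Sostdc1 -2.24 (SE 0.76), Kl -1.46 (SE 0.48), Otx2 -1.04 (SE 0.47) and Clic6 -0.90 (SE 0.41), with 4 susceptible and 5 control pools. Kcnj13 at -2.14 (SE 1.15) and Slc4a5 at -1.38 (SE 1.32) were not called, and Prlr stood at 0.12 (SE 0.29). The median was -1.80 for the 10 genes and -0.01 for all genes, 0 of the 10 had an adjusted p under 0.05, against 4.02% of all genes, and Folr1 and Sostdc1 were the members without overlap between the groups, against 5.05% of all genes below without overlap. For Folr1 that gap lay at 1 read on either side. Because the genes were chosen from these pools, nothing is read from the counts. Fewer choroid plexus cells in a pool, less RNA per cell and less RNA bound to AGO2 cannot be told apart in these pools. The part of the dissection in these values was not tested.

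The susceptible and resilient pools, both compared above with the same control pools, were also compared with each other. By limma 0 of the 10 genes were called and 0 had an unadjusted p under 0.05, against 2.14% of all genes called (0% with an adjusted p under 0.05), 1.19% lower and 0.953% higher. In all, 9 of the 10 were below 0, against 47.4% of all genes. Ttr stood at -2.75 (SE 1.32), Kcnj13 at -2.05 (SE 1.15) and Folr1 at -1.66 (SE 0.93), and the median was -0.80 against 0.01 for all genes.

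**Figure D3:**
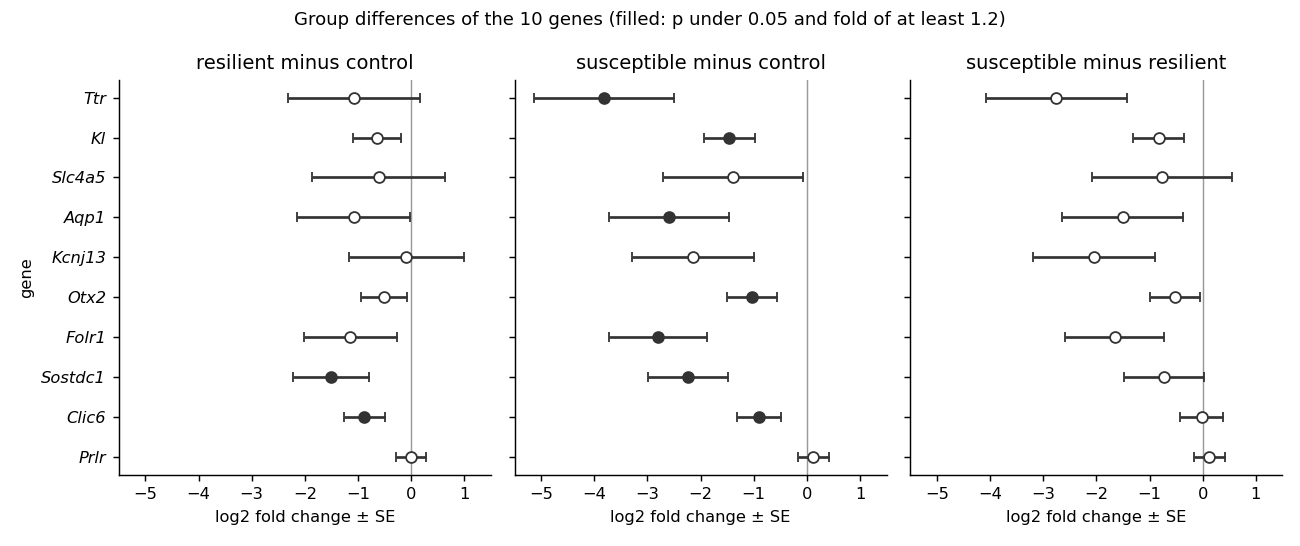
Log2 fold change with its SE (x axis) of each of the 10 genes (y axis) in the 3 comparisons, with filled points for genes past the call criteria. Ttr reaches -3.82 in susceptible against control pools, and Prlr lies at 0.00, 0.12 and 0.12 in the 3 panels.

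The size of these differences depended on single pools. Without susceptible pool 4, the log2 fold change of Ttr in susceptible against control pools was -5.10, and without control pool 5 it was -4.93. In resilient against control pools, it went from -1.07 to -2.17 without control pool 5, where 5 genes were called in place of 2. The 7 calls in susceptible against control pools became 4 when control pool 1, control pool 4 or susceptible pool 3 was removed. In susceptible against resilient pools the 0 calls became 3 without susceptible pool 4 and also without resilient pool 5, and 1 without control pool 5 or resilient pool 4. The value of Clic6 was -0.51 in resilient against control pools when resilient pool 2 was removed and -0.56 in susceptible against control pools when susceptible pool 3 was removed, and it was not called in either case. With total read scaling and voom weights, Ttr in susceptible against control pools was not called either.

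Other markers of the choroid plexus epithelium, 26 of 31 listed being in the data, were examined beside the 10 genes, and among the 5 not in it were Lmx1a, a factor of the plexus, and Krt8 and Krt18, epithelial keratins. In susceptible against control pools 6 of the 26 were called lower and 0 higher, where 9.28% and 9.65% of all genes were. In resilient against control pools 2 of the 26 were called lower and 1 higher, shares that did not exceed the 9.04% and 8.65% of all genes. Susceptible against resilient pools had 1 called higher, Spint2, and 0 lower, where 0.953% and 1.19% of all genes were. Calml4, a calmodulin-like protein of epithelia, had a log2 fold change of -3.76 (SE 0.96) in susceptible against control pools, Kcne2, a potassium channel subunit, -3.45 (SE 1.09), and Tmem72, a membrane protein, -2.77 (SE 1.14). Msx1, a homeodomain factor, stood at -2.55 (SE 0.94), Slc13a4, a sulfate transporter, at -1.69 (SE 0.55) and Igf2, a growth factor of the plexus and of the meninges, at -0.58 (SE 0.24). Calml4 was the only one of the 26 with an adjusted p under 0.05. Calml4 and Kcne2 each had a susceptible median of -3.68 log2 CPM and a lowest level of -4.01, that of 0 reads in susceptible pool 3. The size of these 2 differences therefore rests in part on the 0.5 reads added to each count. The 6 called genes became 10 without control pool 5 and also without susceptible pool 4, and the 3 called in resilient against control pools became 10 without resilient pool 3. The median of the 26 was -0.49 in susceptible and -0.43 in resilient against control pools.

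Kcne2 followed Ttr closely, with some neighbouring pools exchanged. It was 2.38, 0.12, 1.25, 1.57 and -2.05 log2 CPM in the controls, 0.96, -1.45, 2.08, -1.31 and -2.75 in the resilient pools and -3.36, -4.00, -4.01 and 0.20 in the susceptible pools, with an r of 0.967 with Ttr. The values of resilient pool 5 and susceptible pools 1 to 3 were those of 0 reads, so their order came from library size alone. Cldn2 and 1500015O10Rik, named next, also went down to such values, -3.63 in the controls and -4.01 and -4.00 in the susceptible pools. Tmem72 had an r of 0.906, Cldn2, a claudin of the epithelial tight junction, 0.913, Slc13a4 0.897, 1500015O10Rik 0.877 and Calml4 0.871. In all, 6 of the 26 markers, or 23.1%, had an r of at least 0.7 with Ttr, against 46 genes, or 0.277%, of the whole data.

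Some of the markers are also carried by other brain cells. The median r with Ttr over the 26 markers was 0.621, with Enpp2 above it and Htr2c and Slc22a8 below it. Enpp2, an abundant enzyme of the plexus and of oligodendrocytes, had 0.02 (SE 0.16) in susceptible against control pools and an r of 0.668 with Ttr. Htr2c, a serotonin receptor of the plexus and of many neurons, had 0.03 (SE 0.18) and an r of -0.0927, and Slc22a8, an organic anion transporter that brain endothelium also holds, was called higher in resilient against control pools (0.64, SE 0.17) with an r of -0.206. Apart from Slc22a8, these were named after their values were seen.

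Genes of the ependyma, the ciliated cells that line the ventricle, were examined next. Of 13 ependymal and cilia genes in the data (15 listed), 6 were called lower in resilient and 8 in susceptible against control pools, where 9.04% and 9.28% of all genes were called lower, 0 were called higher, and 0 were called in susceptible against resilient pools, where 0 had an unadjusted p under 0.05 by limma. By limma 0 of the 13 had an adjusted p under 0.05 in any of the 3 comparisons. Foxj1, the master regulator of motile cilia, was 3.82, 3.20, 3.33, 3.63 and 2.74 log2 CPM in the controls, 3.49, 2.32, 3.01, 2.81 and 2.29 in the resilient pools and 2.62, 2.71, 2.26 and 1.99 in the susceptible pools. In susceptible against control pools, Cfap126 stood at -2.14 (SE 0.62), Hydin at -1.40 (SE 0.39) and Foxj1 at -0.95 (SE 0.27). These 3 were the only genes of the list without overlap between the groups, against 5.05% of all genes below without overlap. The most abundant gene of the list per length, Rsph1, stood at -0.17 (SE 0.19) and was not called. The summed CPM of the list was 114, 84.1, 50.4, 79.1 and 43.7 in the controls, 82.3, 39.3, 41.9, 40.8 and 25.6 in the resilient pools and 37.9, 28.7, 36.5 and 41.5 in the susceptible pools. Susceptible pool 4, far above its group for Ttr, was close to the other susceptible pools here, and resilient pool 5 had 3 of the 13 genes at 0 reads. The part of ependymal cells in the values of the 10 genes was not tested.

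The other lists were less close to the 8 genes, which leave out Clic6 and Prlr. The mean level of the other choroid plexus markers had a median r of 0.862 with the 8 genes, the ependymal list 0.692, the meningeal and stromal list 0.492, the endothelial list 0.327, the striatal list 0.212, the myelin list 0.205, the blood list 0.19, the thalamic list 0.16 and the list of BNST and neighbouring limbic neurons -0.317. Within the last list Esr1, the oestrogen receptor, was called higher in susceptible pools (0.61, SE 0.29) and had an r of -0.735 with Ttr.

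Clic6 followed a different list. Its r with the mean level of the 7 striatal genes was 0.906 over the 14 pools, and 0.886 with group means removed, against 0.685 with the other choroid plexus markers and 0.45 with Ttr. The summed CPM of the striatal list was 2346, 1917, 1770, 2875 and 2590 in the controls, 1399, 803, 3328, 1845 and 2342 in the resilient pools and 2414, 1890, 862 and 1337 in the susceptible pools, with resilient pool 2 and susceptible pool 3 lowest, as for Clic6. Sostdc1 had an r of 0.637 with this list, and Prlr had an r of 0.663 with the list of BNST and neighbouring limbic neurons. The part of striatal tissue in the calls of Clic6 was not tested.

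The calls in these lists are set against the shares of all genes called. These were 9.04% lower and 8.65% higher in resilient, and 9.28% and 9.65% in susceptible, against control pools. With lists this short, 1 call in a list is near the background. In resilient against control pools 2 of the 8 meningeal genes, Igfbp6 and Dcn, and 2 of the 5 blood genes, Hba-a1 and Hba-a2, were called lower, while in susceptible against control pools 0 of either list were called and limma gave 0 an unadjusted p under 0.05. Igfbp6 stood at -1.90 (SE 0.70) in resilient and -1.45 (SE 0.74) in susceptible against control pools. In the same order Dcn stood at -1.29 (SE 0.60) and -0.08 (SE 0.64), Hba-a1 at -0.82 (SE 0.32) and -0.62 (SE 0.34), and Hba-a2 at -1.07 (SE 0.35) and -0.74 (SE 0.38). Of the 7 striatal genes 2 were called lower in each stressed group against the controls, among them Adora2a. Of the 6 thalamic genes Tcf7l2 was called lower in both and Prkcd higher in resilient pools. Of the 6 myelin genes 1 was called lower in resilient and 2 in susceptible pools, Cnp in both, and Mag was called higher in both. Cnp had a limma adjusted p of 0.0209 in susceptible against control pools, where 4.02% of all genes had one under 0.05. Of the 8 endothelial genes Flt1 was called lower in susceptible pools against both other groups. The part of any of these cell types in the choroid plexus values was not tested.

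**Figure D4:**
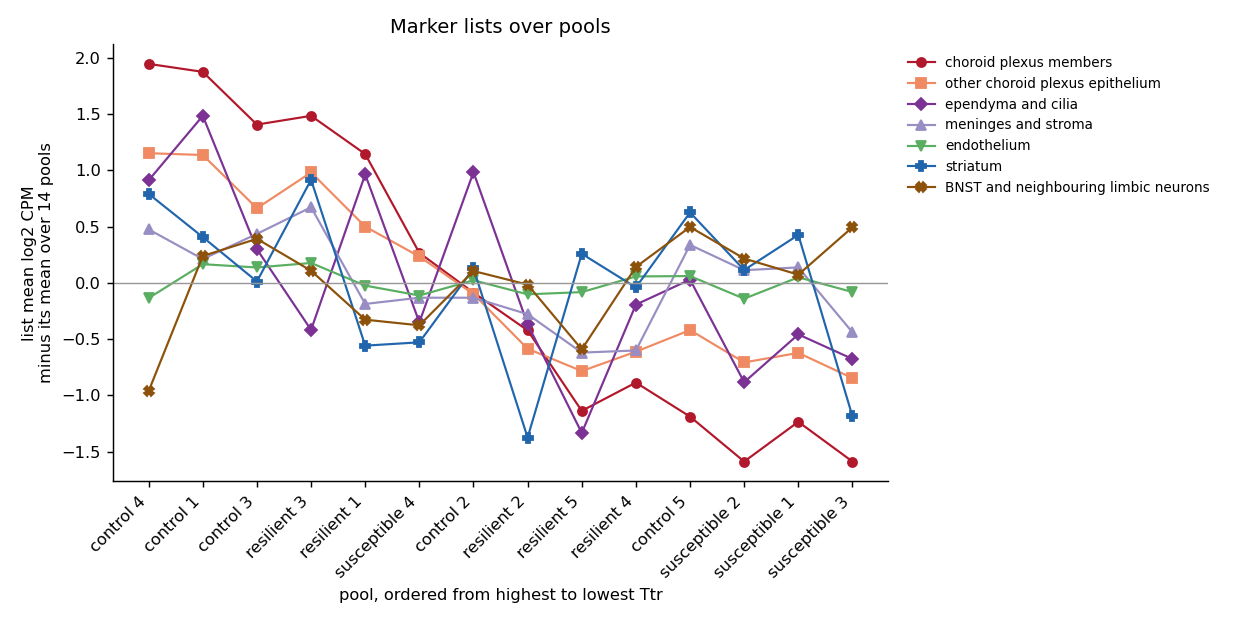
Mean log2 CPM of each marker list minus its mean over the 14 pools (y axis) in each pool, ordered from highest to lowest Ttr (x axis). The 10 genes and the other choroid plexus markers descend together, the ependymal list descends with exceptions, and the endothelial list stays flat.

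Ranked by likeness to the mean of the 10 genes after each was centred and scaled, the closest of 14183 genes with a mean of at least 1 log2 CPM were Slc13a4 with an r of 0.934, Col4a4, a basement membrane collagen, with 0.917, Lhx2 with 0.856, Lbp with 0.856, Rbm47 with 0.842, Anxa2 with 0.817, Cfap43 with 0.797, Eno4 with 0.795, Fam167a with 0.794 and Foxj1 with 0.789, over 14 pools. Slc13a4 and Foxj1 were on the marker lists, and the others were not. Lbp, the lipopolysaccharide-binding protein, was 3.06, 2.16, 2.47, 3.34 and 0.76 log2 CPM in the controls, 2.33, -0.72, 1.64, -0.18 and -0.43 in the resilient pools and -1.78, 0.24, 0.24 and 1.71 in the susceptible pools, again with control pool 5 low and susceptible pool 4 high.

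The miRNA libraries, which played no part in the choice of the 10 genes, gave a separate measure of the same pools. miR-204-5p was 14.98, 13.79, 14.78, 14.94 and 13.53 log2 CPM in control pools 1 to 5, 14.95, 13.88, 14.40, 13.67 and 13.77 in resilient pools 1 to 5 and 13.38, 13.63 and 14.34 in susceptible pools 1, 2 and 4. The high pools were those high for Ttr, and the groups overlapped. It took from 1.11% to 3.2% of the miRNA reads of a pool and ranked between 7 and 28 among 788 miRNAs.

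Over the 13 pools with both libraries, miR-204-5p and Ttr had a Pearson r of 0.927 (permutation p = 3e-05, adjusted p = 0.00027 over 9 miRNAs) and a Spearman rho of 0.945 (permutation p = 1e-05, the smallest that 100000 permutations can give, adjusted p = 9e-05). After group means were removed, r was 0.916 (p = 0.0002 with permutations within groups, adjusted p = 0.0018). Without susceptible pools 1 and 2, the pools farthest from the median of Ttr, r was 0.918 (permutation p = 0.0002). The join of the libraries rests on the pool numbers in their titles.

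Of the other 8 miRNAs set against Ttr, 4 had an adjusted p under 0.05 for the Pearson r. miR-34c-5p had an r of 0.915 (permutation p = 6e-05, adjusted p = 0.00027) and a rho of 0.868 (permutation p = 0.00027), miR-34b-5p 0.886 (p = 0.00015, adjusted p = 0.00045) and 0.83 (p = 0.00066), and miR-34b-3p 0.808 (p = 0.0014, adjusted p = 0.00315) and 0.824 (p = 0.00088), all from two-sided permutation tests. miR-204-3p, the less abundant arm, had 0.657 (permutation p = 0.0171, adjusted p = 0.0308) and 0.538 (permutation p = 0.0614), and without the same 2 pools its r was 0.551 (permutation p = 0.0804), no longer past 0.05 with 11 pools. Without these 2 pools, miR-34c-5p, miR-34b-5p and miR-34b-3p had an r of 0.866, 0.875 and 0.693. After group means were removed, their r was 0.891, 0.875 and 0.786. Permutations within groups gave these an adjusted p of 0.00522, 0.00522 and 0.0138. For miR-204-3p this r was 0.655 (permutations within groups, adjusted p = 0.0629), and its rho had an adjusted permutation p of 0.11. The rest of the 8 had no adjusted p under 0.05 within groups.

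Members with the same seeds behaved differently. miR-211-5p, which has the seed of miR-204-5p, had an r of 0.134 (permutation p = 0.668) and a rho of 0.011 (permutation p = 0.977), with at most 11 reads in a pool. miR-449a-5p and miR-449c-5p, which have the seed of miR-34b-5p, had an r of 0.0569 (permutation p = 0.852) and -0.0999 (permutation p = 0.741) and a rho of 0 (permutation p = 1) and -0.11 (permutation p = 0.721), with 45 to 329 and 19 to 120 reads per pool. miR-34c-3p, with the seed of miR-34b-3p, had 0.0125 (permutation p = 0.968) and -0.115 (permutation p = 0.708), with 1 to 21 reads.

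**Figure D5:**
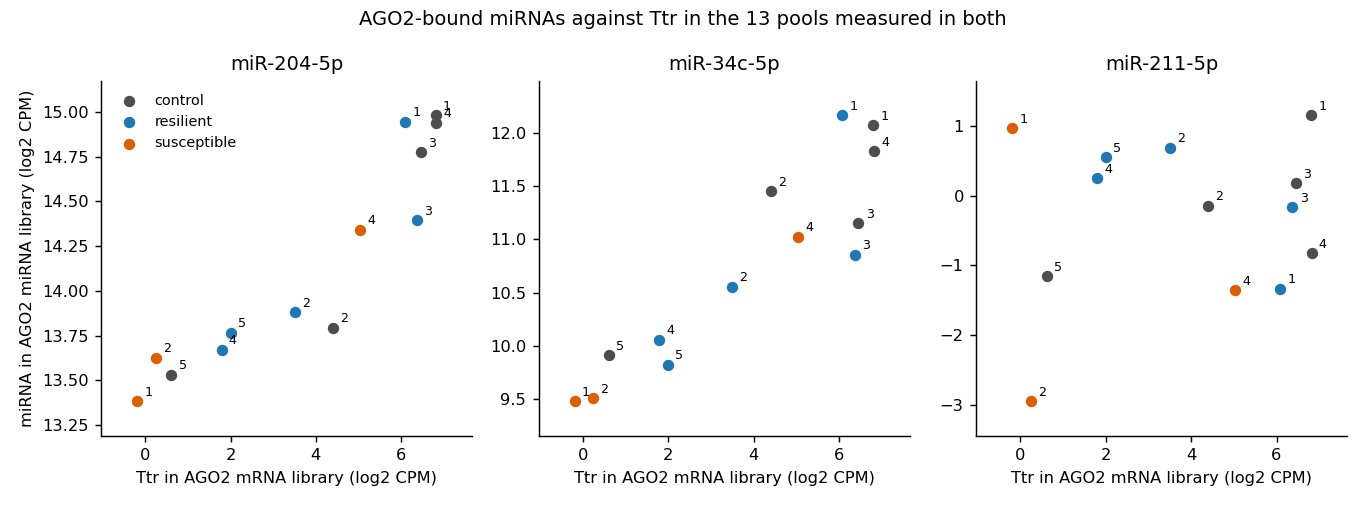
Level of 3 miRNAs in the AGO2 miRNA libraries (y axes, log2 CPM) against Ttr in the AGO2 mRNA libraries (x axis, log2 CPM) for the 13 pools with both, coloured by group and numbered by pool. miR-204-5p and miR-34c-5p rise with Ttr (r = 0.927 and 0.915), and miR-211-5p does not show this order (r = 0.134).

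Between groups the miRNAs were less clear than across pools. For miR-204-5p the log2 fold change was -0.27 (SE 0.29, limma adjusted p = 0.76) in resilient and -0.62 (SE 0.33, limma adjusted p = 0.933) in susceptible against control pools, and -0.35 (SE 0.33, limma adjusted p = 0.99) in susceptible against resilient pools. It was not called in any of the 3, in which 9.52%, 4.7% and 3.93% of all miRNAs were called and 0.254%, 0% and 0% had an adjusted p under 0.05. The two-sided exact permutation p was 0.468, 0.196 and 0.393, where the smallest that these group sizes allow is 0.00794, 0.0179 and 0.0179. The second difference was -0.90 without susceptible pool 4, -0.84 without control pool 5 and -0.77 without control pool 2, and in each of these 3 cases it was called.

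miR-34b-3p was 8.24, 7.62, 7.12, 7.86 and 6.53 log2 CPM in the controls, 7.78, 6.54, 6.27, 6.11 and 5.47 in the resilient pools and 5.32, 5.49 and 6.89 in the susceptible pools. It was called lower in resilient pools (-1.04, SE 0.38, limma adjusted p = 0.303, two-sided exact permutation p = 0.0714) and in susceptible pools (-1.58, SE 0.44, limma adjusted p = 0.602, two-sided exact permutation p = 0.0536) against the same controls. miR-34c-5p was called lower in susceptible against control pools (-1.28, SE 0.48, limma adjusted p = 0.884, two-sided exact permutation p = 0.0893). Of all miRNAs, 5.58% were called lower in resilient and 3.17% in susceptible against control pools, and neither miRNA had an adjusted p under 0.05. Without control pool 1 the resilient difference of miR-34b-3p, -0.85, was not called, and the susceptible difference of miR-34c-5p was not called without susceptible pool 1 (-1.01) or susceptible pool 2 (-1.03), nor with all pools when limma's mean-variance trend was left out. As fitted here with all pools, the other 7 miRNAs set against Ttr were not called in any comparison, and miR-449a-5p stood at 0.56 (SE 0.31) in resilient and 0.21 (SE 0.35) in susceptible against control pools. Single pools and sample weights changed this. With sample weights, miR-34b-5p was called in susceptible (-1.14) and miR-204-3p (-0.68) and miR-449a-5p (0.69) in resilient against control pools. In susceptible against control pools, miR-34b-5p stood at -0.88 (SE 0.53) and was called without susceptible pool 4 (-1.48) or control pool 5 (-1.23), and miR-204-3p at -0.53 (SE 0.36) and was called without susceptible pool 4 (-0.83). In resilient against control pools, miR-449a-5p (0.87) and miR-204-3p (-0.74) were called without resilient pool 2, and miR-34c-5p without control pool 5 (-0.93) or resilient pool 1 (-0.96). In susceptible against resilient pools, miR-34b-3p (-1.03) and miR-34c-5p (-1.20) were called without susceptible pool 4, miR-449a-5p without resilient pool 2 (-0.66) and miR-211-5p without susceptible pool 1 (-2.15).

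Over all 583 miRNAs with a mean of at least 1 log2 CPM, a ranking made after the values were seen put miR-1298-5p closest to Ttr, with an r of 0.943, followed by miR-204-5p, miR-34c-5p and miR-34b-5p, and miR-448-3p with 0.843. miR-1298-5p and miR-448-3p lie in introns of Htr2c on the plus strand of GRCm38.p6, at chrX:147064918-147064939 and chrX:147158281-147158302, and are shown to set their seeds apart from the families above.
miR-1298-5p: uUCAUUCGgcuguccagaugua
miR-448-3p: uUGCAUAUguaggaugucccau
miR-1298-5p was 10.80, 9.35, 10.49, 10.92 and 8.84 log2 CPM in the controls, 10.51, 9.39, 10.55, 9.02 and 8.92 in the resilient pools and 9.10, 8.71 and 10.12 in the susceptible pools. Control pool 5 was low and susceptible pool 4 high in their groups here too. The transcript of their host gene was in another order, since Htr2c had an r of -0.0927 with Ttr over the 14 mRNA pools, and Trpm3, the host of miR-204, had 0.544.

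Because the levels of the other 7 genes followed that of Otx2 over pools, the windows from 250 bases before to 50 bases after the start of each gene were searched on both strands for TAATCC, the core of the sequence that OTX2 is known to bind. RefSeq windows on GRCm38.p6 were at hand for 6 of the 10 genes, Kl, Kcnj13, Aqp1, Otx2, Slc4a5 and Prlr, 11 windows in all, and 1 of the 11 held the core, against 7.06% of 32851 windows of this length. That match was in a window of Otx2 itself, on the minus strand at chr14:48665303-48665332, and is shown with the reverse complement of the core in capitals.
Otx2: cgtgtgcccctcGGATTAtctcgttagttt
The match describes the letters of the window and is no measure of binding.

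Of the 10 genes only Aqp1, which red blood cells also carry, was among the 13084 genes of the blood mRNA data, with a median of 7.68 log2 CPM over 25 blood samples. The blood miRNA data held miR-204-5p at a median of 2.61 log2 CPM. These are other libraries with their own normalization, and no comparison was made with the BNST pools.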

How the data were processed

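AGO2-bound mRNA (14 pools) and miRNA (13 pools) of BNST were analysed, and blood data were read for levels. The deposited values are log2 CPM (scaled read counts on a log2 scale) made by the authors with voom after removing low genes. Per the study's methods, mRNA reads were trimmed, aligned with STAR to GRCm38 and counted with HTSeq, and miRNAs were quantified with miRDeep2 and bowtie on miRBase. The authors' notes name Bowtie 1.1.1. A ComBat adjustment for cohort is described, but every deposited value gave whole reads within 0.0001 reads, and the cohort of each pool was not given in the sources used here. Group and cohort therefore cannot be told apart, and no within-cohort value was computed. Reads recovered this way gave the depth of each pool.

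All groups entered 1 limma (version 3.58.1, R 4.3.3) model per data type with empirical Bayes moderation and a mean-variance trend, on the deposited log2 values. Calls used the study's criteria, an unadjusted p under 0.05 with a 1.2-fold difference, and adjusted p-values are Benjamini-Hochberg over all genes or miRNAs. P-values measure the spread between these pools. Relations with Ttr used 100000 permutations, adjusted over 9 miRNAs. Exact permutation tests over pools were run for single miRNAs. The fit was tested on simulated data. Python 3.11.15 with scipy 1.17.1 was used. Gene symbols matched all but 52 of 16587 identifiers. Same-numbered pools were not treated as pairs.

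The 10 genes and all marker lists were chosen with earlier results of these data known. The genes named are the 10 members, of each marker list the 3 called genes with the smallest p in any comparison plus the most abundant one, the 10 genes most alike in pattern, and the listed miRNAs. Other listed genes, miR-1298-5p and miR-448-3p were named after their values were seen. Some genes of the other marker lists are not reported here. Alternatives covered moderation, sample weights, scaling, added reads, a filter, the groups in the fit, a replicate block and leaving out each pool.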

Additional observations from a re-analysis of the deposited data

Results flagged for a closer look

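Ttr in susceptible pool 4, at 5.04 log2 CPM, stood apart from the other 3 susceptible pools, its gap to the nearest of them being 0.897 of the range of the group. Among the 10 genes and the listed miRNAs, 48 groups were examined in this way, of which chance alone marks about 1 in 20. The same pool was also the highest susceptible pool for Kl, Kcnj13, Aqp1, Otx2 and Slc4a5, and its cause was not tested.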

How the results depend on the processing

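No called value changed its sign. Of 5343 values of single genes and miRNAs, 199 had the other sign under an alternative, 18 of them for the 10 genes (Clic6, Kcnj13, Slc4a5 and Prlr), and in none was the difference called. The called members in resilient against control pools, 2 as reported, numbered 1 without the mean-variance trend, with quantile normalization, with 2 reads added, with a mean of at least 2 log2 CPM or with only the groups compared, and 0 with voom on recovered reads. In susceptible against control pools, 7 as reported, they numbered 4 with voom on recovered reads and 4 with the mean filter, which left 5 of the 10 genes. In susceptible against resilient pools, 0 as reported, they numbered 1 with quantile normalization and 1 with only the groups compared. The other choroid plexus markers called in susceptible against control pools, 6 as reported, numbered 1 with the mean filter, which left 12 of the 26, and 10 with only the groups compared. In susceptible against resilient pools, 1 as reported, they numbered 2 without the trend, with sample weights, with quantile normalization and with 2 reads added. The causes were not tested, apart from the fewer genes under the filter.

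Leaving out each pool in turn gave 0 to 5 called members in resilient against control pools, 4 to 8 in susceptible against control pools and 0 to 3 in susceptible against resilient pools, where 3 were called without resilient pool 5 and also without susceptible pool 4. For the other markers the ranges were 2 to 10, 4 to 10 and 1 to 4. miR-204-5p in susceptible against control pools ranged from -0.90 to -0.42. Its r with Ttr ranged from 0.914 to 0.957, and it was 0.92 without control pool 5 and susceptible pool 4 together, an alternative chosen after seeing the data. A group left with 2 miRNA pools was assumed to vary like the others.

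The labels do not say whether same-numbered pools of different groups share more than the number. Over all genes, deviations of same-numbered pools from their group means correlated between -0.172 and 0.14 in the mRNA libraries. Over all miRNAs the range was -0.101 to 0.096. These values were not computed for the 10 genes alone, and whether such pools shared a cohort or a dissection day was not tested. With the replicate block, 2 members were called in resilient against control, 9 in susceptible against control and 5 in susceptible against resilient pools. Other markers called numbered 5, 10 and 3 in the 3 comparisons, and miR-204-5p in susceptible against control pools was -0.72 and called. The block also called miR-34b-5p there (-1.29), and miR-34b-5p (-0.85), miR-34b-3p (-0.94) and miR-34c-5p (-1.05) in susceptible against resilient pools. The block took the call from 7 values of single genes and miRNAs and gave one to 28, and over every alternative together 253 such values lost their call and 162 gained one. Of the uncalled miRNA differences that changed sign, miR-211-5p in resilient against control pools was -0.0167 with quantile normalization and -0.0866 with 2 reads added. For miR-34c-3p, resilient against control pools gave -0.124 with sample weights and -0.00471 with quantile normalization, susceptible against control pools -0.166, -0.0132 and, with 2 reads added, -0.0588, and susceptible against resilient pools 0.00271 with voom on recovered reads. For miR-449c-5p, susceptible against control pools gave 0.32 with sample weights and 0.12 with the replicate block, and susceptible against resilient pools -0.0471 with voom on recovered reads. Leaving out single pools gave -0.239 to 0.242 for miR-204-3p and -1.04 to 0.0766 for miR-34b-5p in susceptible against resilient pools, and -0.0934 to 0.489 for miR-211-5p in resilient against control pools. It gave -0.271 to 0.513, -0.415 to 0.572 and -0.498 to 0.369 for miR-34c-3p and -0.477 to 0.00265, -0.551 to 0.489 and -0.31 to 0.73 for miR-449c-5p in the 3 comparisons. Depth limits Folr1, Sostdc1, Kcnj13, Aqp1 and Slc4a5, which had 0 reads in some pools. The same held for some of the other choroid plexus markers, among them Calml4, Kcne2, Cldn2 and 1500015O10Rik.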
